A study of Mus musculus with 6 samples.

Results

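The genes described here are 10 BMP and GDF ligand genes of the mouse, *Bmp1*, *Bmp2*, *Bmp3*, *Bmp4*, *Bmp5*, *Bmp6*, *Bmp7*, *Bmp8b*, *Gdf11* and *Gdf15*, chosen by gene name out of the 55809 genes in the deposited counts. HC11 is an established line of mouse mammary gland epithelial cells. RNA was sequenced from HC11 cells in medium without BMP7 (Ctrl, 3 libraries) or with BMP7 protein (BMP7, 3 libraries), to ask which genes the added ligand changes, and the question taken up here is which BMP and GDF genes the cells transcribe themselves and whether these respond to BMP7. The added BMP7 is protein, so it brings no *Bmp7* RNA of its own. All 6 libraries came from 1 cell line, the labels do not say whether they came from separate cultures, and p-values therefore measure the spread between these libraries only. For HC11 the methods describe starvation and then BMP7 for either minutes or hours, and which of these was used for sequencing is not given in the sources used here.

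BMPs and GDFs belong to the TGF-beta superfamily and are made as precursors, which proprotein convertases such as furin cut to release the mature dimer. The dimer joins type I and type II receptor kinases, which phosphorylate receptor-regulated Smads. BMP7 and most other BMPs act through SMAD1, SMAD5 and SMAD9, whereas GDF11 acts like the activins through SMAD2 and SMAD3. GDF15 is a distant relative that signals through GFRAL and is known as a gene induced by stress. BMP1 carries the name but is no ligand of this family: it is a secreted metalloprotease that trims procollagens and cuts the BMP antagonist chordin. In the mammary gland BMP signalling, of BMP4 above all, is known from the embryonic bud and nipple.

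The deposited counts are fragments per gene, with totals between 14607938 and 23748970 per library. Genes of the epithelium were high, with *Epcam* at a mean of 291 and *Cdh1* at 215 FPKM in Ctrl. The basal keratins *Krt5* and *Krt14* at 1203 and 1985 FPKM stood above the luminal *Krt8* and *Krt18* at 32.3 and 34.4 FPKM, although HC11 serves in the study as a luminal line. The other basal genes listed lay below both luminal keratins, with *Trp63* at 28.3, *Oxtr* at 2.57, *Mylk* at 0.334 and *Acta2* at 0.274 FPKM. Of the other luminal genes, *Cldn3* was at 31.3, *Elf5* at 4.18 and *Krt19* at 0.0528 FPKM. CPM is a gene's count per 1000000 counts of the library, whose total was scaled with TMM factors, and FPKM is CPM divided by the gene's summed exon length in kilobases. BMP7 replicates 3 and 4, named by the numbers in the counts table, stood apart in genes of other cell types. The summed level of 12 adipocyte genes was 102 and 89.0 CPM in them and 29.5 CPM in BMP7 replicate 1, while Ctrl libraries had 16.4 to 27.6, and 9 of its 10 tested genes were higher with BMP7. That of 14 macrophage genes was 32.4 and 31.7 CPM in them and 59.0 CPM in BMP7 replicate 1, while Ctrl libraries had 56.9 to 61.8, and 3 of its 10 tested genes were lower. *Lyz2*, 1 of these 3, gave most of that difference, at 25.5 to 26.6 CPM in Ctrl, 22.5 CPM in BMP7 replicate 1 and 6.76 and 6.94 CPM in replicates 3 and 4. The median log2 fold change of its tested genes was -0.74, while *Cd68* (0.27) and *Cd74* (0.52) went the other way and were not called. No gene of either list was at 0 in all libraries.

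HC11 cells transcribed 3 of the 10 genes at a level that could be tested, *Bmp1*, *Gdf11* and *Bmp7*. A further 4, *Bmp6*, *Bmp8b*, *Gdf15* and *Bmp3*, had between 5 and 24 counts over all 6 libraries together and did not pass edgeR's expression filter. The remaining 3, *Bmp2*, *Bmp4* and *Bmp5*, had no count in any library. None of the 3 tested genes was called with added BMP7 in either direction, where 11.4% of all tested genes were (5.99% higher and 5.38% lower). A call needed a change of more than 1.2-fold and a p under 0.05 in edgeR's quasi-likelihood test, adjusted after Benjamini and Hochberg over 15733 genes. Without the limit on fold change 0 of the 3 were called, against 13.7% of all tested genes, with 6.42% lower. DESeq2 likewise called 0 of the 3, where it called 926 genes higher and 740 lower among all tested. The BMP7 and Ctrl libraries did not overlap for 2 of the 3, against 29.8% of all tested genes.

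By mean FPKM over the 6 libraries, *Bmp1* came first with 13.1, followed by *Gdf11* with 4.33 and *Bmp7* with 2.29. The library ranges of these 3 genes, 12.7 to 13.4, 3.53 to 4.91 and 1.93 to 2.92 FPKM, did not overlap each other. Their levels lay above 71.4%, 42.9% and 31.0% of the tested genes, in the same order. Below them came a gap, and *Bmp6* followed with a mean of 0.0510 FPKM, *Bmp8b* with 0.0348, *Gdf15* with 0.0322 and *Bmp3* with 0.00565. These 4 could not be ranked among themselves, since each overlapped the next in its library range. Among the genes that encode true ligands, *Gdf11* and *Bmp7* thus made up nearly all of the RNA, with *Bmp7* giving 33.2% to 44.0% of the summed FPKM of the 9 genes other than *Bmp1* in Ctrl.

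**Figure D1:**
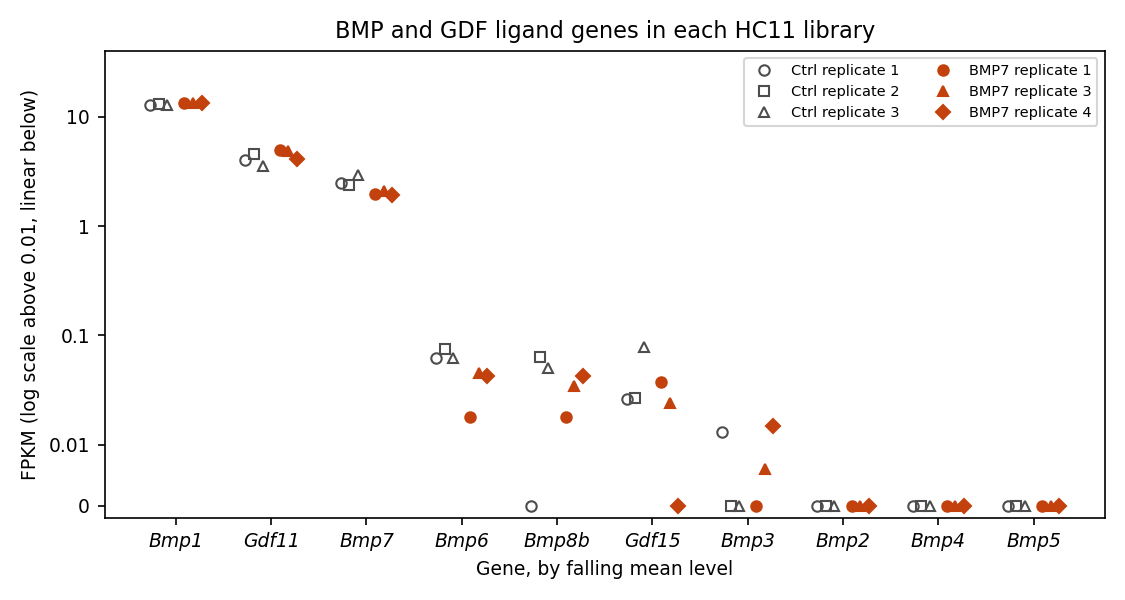
FPKM (vertical axis, logarithmic above 0.01 and linear below) of the 10 genes in each of the 3 Ctrl libraries (open symbols) and 3 BMP7 libraries (filled symbols), ordered by mean level. *Bmp1*, *Gdf11* and *Bmp7* sit between 1.93 and 13.4 FPKM, 4 genes stay at or under 0.0792 FPKM, and *Bmp2*, *Bmp4* and *Bmp5* are at 0 in all 6 libraries.

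*Bmp7* was the gene for which autoregulation could be asked most directly. It lies on the minus strand of chromosome 2 of the mm39 annotation, from 172709805 to 172782114, and no base of its 4019 exon bases is shared with another gene. It was measured at 9.92, 9.44 and 11.7 CPM in Ctrl replicates 1, 2 and 3, and at 7.95, 8.49 and 7.77 CPM in BMP7 replicates 1, 3 and 4. Every BMP7 library lay below every Ctrl library, and the Ctrl libraries were spread more widely, with replicate 3 the highest. The means were 10.4 ± 1.21 CPM in Ctrl and 8.07 ± 0.376 with BMP7 (SD, n = 3 libraries each).

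The log2 fold change of *Bmp7* was -0.36 (standard error 0.13, 95% interval -0.63 to -0.09, not adjusted for the number of genes), which is a level lower by 22.0%. This did not pass the threshold, with an adjusted p of 0.0789 from edgeR's quasi-likelihood test, and an exact permutation test gave a two-sided p of 0.1, the smallest that 3 libraries against 3 allow. The same permutation test also gave 0.1 for *Bmp1*, whose log2 fold change was 0.05, and 0.2 for *Gdf11*. In bulk RNA, a lower level in each cell and fewer cells that transcribe the gene cannot be told apart. Of the 846 genes called lower with BMP7, 224 had a smaller fall than the difference measured for *Bmp7*. The counts behind it were 638 in Ctrl and 446 with BMP7, and the pooled levels of 10.4 CPM (exact Poisson 95% interval 9.58 to 11.2) and 8.11 CPM (7.37 to 8.90) did not overlap within counting error, which leaves out the spread between libraries. In BMP7 replicate 1 alone against Ctrl the log2 fold change was -0.38 (adjusted p = 0.258 in edgeR, with the spread of the lone library taken from Ctrl), and the adipocyte and macrophage sums of that library were given above. The part of other cells in the difference was not tested. It was smallest without Ctrl replicate 3, at -0.26, and the alternatives run gave adjusted p-values between 0.0617 and 0.297.

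*Gdf11*, the SMAD2 and SMAD3 ligand of the set, is on the minus strand of chromosome 10 from 128718164 to 128727587, with no shared exon base. Its neighbour within 10 kb, *Cd63*, was not called. The level of *Gdf11* was 16.3, 18.5 and 14.3 CPM in Ctrl and 19.9, 19.7 and 16.7 CPM in BMP7 replicates 1, 3 and 4. The groups overlapped, with Ctrl replicate 2 above BMP7 replicate 4. The log2 fold change was 0.20 (standard error 0.11, 95% interval -0.04 to 0.44, adjusted p = 0.284 from the same edgeR test). A rise of up to 35.3% and a fall of up to 2.65% lie within that interval. With the column numbers as a block, of which 2 occur in both groups, the log2 fold change was 0.38 and *Gdf11* passed the threshold (adjusted p = 0.0358 in edgeR). Ctrl replicate 2 and BMP7 replicate 4, the libraries that overlapped, have numbers found in 1 group only and add nothing to that estimate.

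*Bmp1*, the procollagen protease, is on the minus strand of chromosome 14 from 70711998 to 70757674, with no shared exon base. It was measured at 114, 116 and 112 CPM in Ctrl and at 119, 118 and 117 CPM in BMP7 replicates 1, 3 and 4. Each BMP7 library exceeded each Ctrl library by a small margin, but scaled by library totals in place of TMM the mean was lower with BMP7 (12.9 FPKM, against 13.2 in Ctrl). The log2 fold change was 0.05 (standard error 0.06, 95% interval -0.07 to 0.17, adjusted p = 0.667 from the same edgeR test), so a change of 1.2-fold in either direction lies outside the interval.

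The ratio of *Bmp7* to *Gdf11* within a library does not depend on how libraries are scaled, and was chosen after the values were seen. Per length it was 0.614, 0.516 and 0.828 in Ctrl replicates 1, 2 and 3, and 0.403, 0.435 and 0.469 in BMP7 replicates 1, 3 and 4. The BMP7 libraries all lay below the Ctrl libraries (n = 3 each). The ratio reuses the *Bmp7* values above and was picked with them known, so no test of it is given. The means were 0.653 ± 0.159 in Ctrl and 0.435 ± 0.0330 with BMP7 (SD).

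**Figure D2:**
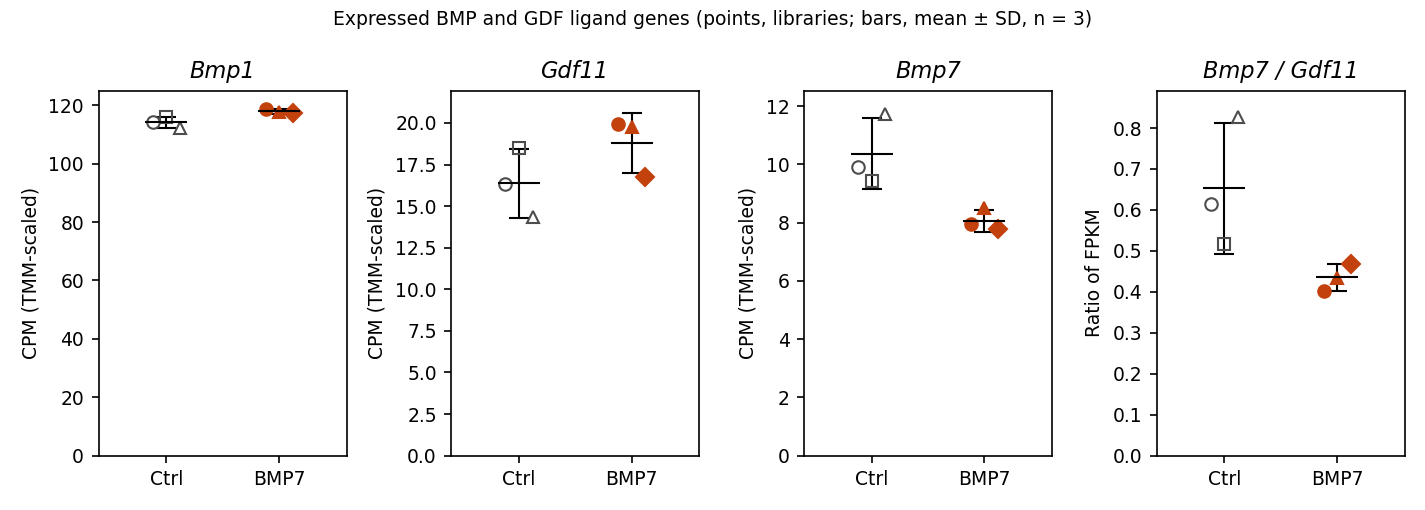
CPM of *Bmp1*, *Gdf11* and *Bmp7* and the ratio of *Bmp7* to *Gdf11* FPKM (vertical axes, from 0) in Ctrl (open symbols) and BMP7 libraries (filled symbols), with circles, squares, triangles and diamonds for replicates 1, 2, 3 and 4 and with mean ± SD (n = 3). *Bmp7* stays at or under 8.49 CPM in the BMP7 libraries and at or above 9.44 in Ctrl, whereas *Gdf11* overlaps between the groups and *Bmp1* differs by a few CPM, in an order that turns when library totals replace TMM.

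The 4 genes with a few counts gave no measurable response. *Bmp6*, best known from iron metabolism, had 5, 6 and 5 counts in Ctrl and 1, 4 and 3 counts in BMP7 replicates 1, 3 and 4. In CPM the BMP7 libraries (0.0697 to 0.178) lay below the Ctrl libraries (0.241 to 0.295), but the pooled levels of 0.260 CPM (exact Poisson 95% interval 0.149 to 0.422) and 0.145 CPM (0.0628 to 0.287) overlapped, and with no expression filter edgeR gave an adjusted p of 0.677. Of the *Bmp6* exon bases, 224 (5.74%) are shared with *Txndc5* on the other strand, a gene at a mean of 105 CPM in Ctrl, and because fragments touching both genes were left out and strand was not used in counting, fragments near that end cannot be told apart. *Bmp8b* had 0, 5 and 4 counts in Ctrl and 1, 3 and 3 with BMP7. It shares 12.2% of its exon bases with other genes, *Ppie*, at 16.9 CPM in Ctrl, and the uncounted Gm17244.

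*Gdf15*, the stress-induced family member, had 1, 1 and 3 counts in Ctrl and 1, 1 and 0 in BMP7 replicates 1, 3 and 4. All libraries were therefore at or under 3 counts, taken here as the floor of detection, and no fold change is given. *Bmp3*, which encodes a ligand known to oppose other BMPs, was at the same floor, with 2, 0 and 0 counts in Ctrl and 0, 1 and 2 with BMP7. In both genes the values of the groups overlapped.

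*Bmp2*, *Bmp4* and *Bmp5* had 0 counts among 116751247 counted fragments. A count of 0 over all libraries allows a level of up to 0.0257 CPM (3 counts), which per exon length is 0.00724 FPKM for *Bmp2*, 0.0114 for *Bmp4* and 0.00639 for *Bmp5*, for counting error only. *Bmp2* shares no exon base with another gene and *Bmp4* shares 3.96% of them with Gm15217, which had no count. In *Bmp5* 46.7% of the exon bases overlap the antisense gene Gm26903, where fragments would have been left out as ambiguous, which leaves 2147 unshared bases. The FPKM limits above divide by all exon bases, and are therefore too low for *Bmp5* and slightly too low for *Bmp4*. BMP7 did not bring any of the 3 above the floor in any library.

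Promoter windows of RefSeq on GRCm38.p6, an older build than that of the counts, were at hand for 6 of the 10 genes, namely *Bmp4*, *Bmp5*, *Bmp6*, *Bmp8b*, *Gdf11* and *Gdf15*, the last with 2 windows. Of each, the 250 bases before the start were read. Those of the transcribed *Gdf11* and of *Bmp4* and *Bmp5*, which had no count, are shown for the contrast in their base composition, 5′ to 3′ on the strand of the gene and with every CG dinucleotide in capitals. They lie at chr10:128891719-128891968 (minus strand), chr14:46390670-46390919 (minus strand) and chr9:75775115-75775364 (plus strand).
Gdf11: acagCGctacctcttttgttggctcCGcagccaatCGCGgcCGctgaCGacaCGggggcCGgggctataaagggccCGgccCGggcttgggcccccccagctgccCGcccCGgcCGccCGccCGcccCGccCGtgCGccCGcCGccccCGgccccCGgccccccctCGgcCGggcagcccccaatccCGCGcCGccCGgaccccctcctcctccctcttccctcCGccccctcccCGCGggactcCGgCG
Bmp4: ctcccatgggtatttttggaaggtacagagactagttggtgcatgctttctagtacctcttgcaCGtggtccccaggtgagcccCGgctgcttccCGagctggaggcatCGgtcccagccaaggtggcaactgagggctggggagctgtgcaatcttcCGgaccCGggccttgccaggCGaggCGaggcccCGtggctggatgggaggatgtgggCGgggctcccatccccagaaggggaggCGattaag
Bmp5: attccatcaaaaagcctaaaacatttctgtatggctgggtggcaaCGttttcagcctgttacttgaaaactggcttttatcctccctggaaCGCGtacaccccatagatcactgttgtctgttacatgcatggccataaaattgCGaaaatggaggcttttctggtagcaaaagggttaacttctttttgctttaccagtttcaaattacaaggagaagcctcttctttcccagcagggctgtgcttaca

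The *Gdf11* window held 33 CG dinucleotides at 81.2% G and C, the *Bmp4* window 11 at 63.2% and the *Bmp5* window 4 at 42.8%, against a median of 6 and 52.4% over 32851 windows. Level and CG content did not go together in the other windows: *Bmp6* had 22 CG dinucleotides and *Bmp8b* 17, and both were near the floor, and the windows of *Gdf15* had 6 and 1. The letters GGCGCC, a GC-rich motif of BMP-responsive elements that reads the same on both strands, were in 0 of the 7 windows and in 9.59% of all windows. Among the windows of genes that rose with BMP7, that of *Id2* held 1 match and those of *Id3*, *Smad6* and *Atoh8* held 0. A match or its lack describes these letters in this window only.

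The same list of ligands was widened to 16 further family members, such as *Bmp8a*, *Gdf5*, *Gdf9*, *Mstn* and *Nodal*. Of these, 7 had no count and 1 passed the filter, *Amh*, the anti-Müllerian hormone gene, at 0.505 ± 0.161 CPM in Ctrl and 0.809 ± 0.387 with BMP7 (SD, n = 3 each). Its adjusted p was 0.421 in the edgeR test.

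Genes for making and receiving these ligands were transcribed, most of the tested ones above the level of *Bmp7*. Of the 4 precursor convertases, all tested, *Pcsk6* rose from 4.05 to 6.18 FPKM (log2 fold change 0.61, adjusted p = 4.5e-05 from edgeR) and the other 3 were not called. *Furin* was measured at 12.7 FPKM in Ctrl and 13.0 with BMP7, above the level of *Bmp7* in both groups. Among 16 receptor and co-receptor genes 11 were tested, 2 were higher and 1 was lower. *Bmpr1a* and *Bmpr2*, a type I and a type II BMP receptor, were at 26.9 and 11.8 FPKM in Ctrl and 30.1 and 13.5 with BMP7, and neither was called (adjusted p of 0.107 and 0.129). *Acvr1*, the type I receptor that BMP7 also uses, rose from 7.31 to 11.6 FPKM (log2 fold change 0.67, adjusted p = 1.25e-05). For the activin type II receptors, which BMP7 and GDF11 share, *Acvr2a* was at 6.52 and 7.34 FPKM and *Acvr2b* at 0.873 and 0.713 FPKM in Ctrl and BMP7, and neither was called. *Gfral*, the receptor of GDF15, had 3 counts in all. The co-receptor *Tgfbr3* was lower (log2 fold change -1.22) and *Rgma* higher (0.33), the latter not without BMP7 replicate 3.

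Target genes of the pathway changed strongly in the same libraries. Of the 10 genes described here 3 were tested and 0 called, against 11.4% of all tested genes, and 3 genes are too few to set against that share. All 8 listed targets were tested and rose, with a median log2 fold change of 2.25 against -0.01 over all tested genes. These targets were listed with earlier results of these data known, so that all 8 rose describes the list and is no test of the pathway. *Id1*, *Id2*, *Id3* and *Id4*, inhibitors of DNA binding, had log2 fold changes of 4.28, 2.82, 6.31 and 0.49, and *Atoh8*, a transcription factor gene with at most 4 counts in a Ctrl library, reached 7.28 CPM. Of the 6 Smad genes 4 were higher. The inhibitory *Smad6* and *Smad7* had log2 fold changes of 2.21 and 2.81, *Smad9* rose from 0.244 to 3.75 CPM, and *Smad1* was also higher (0.45), while *Smad5* and *Smad4* were not called.

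**Figure D3:**
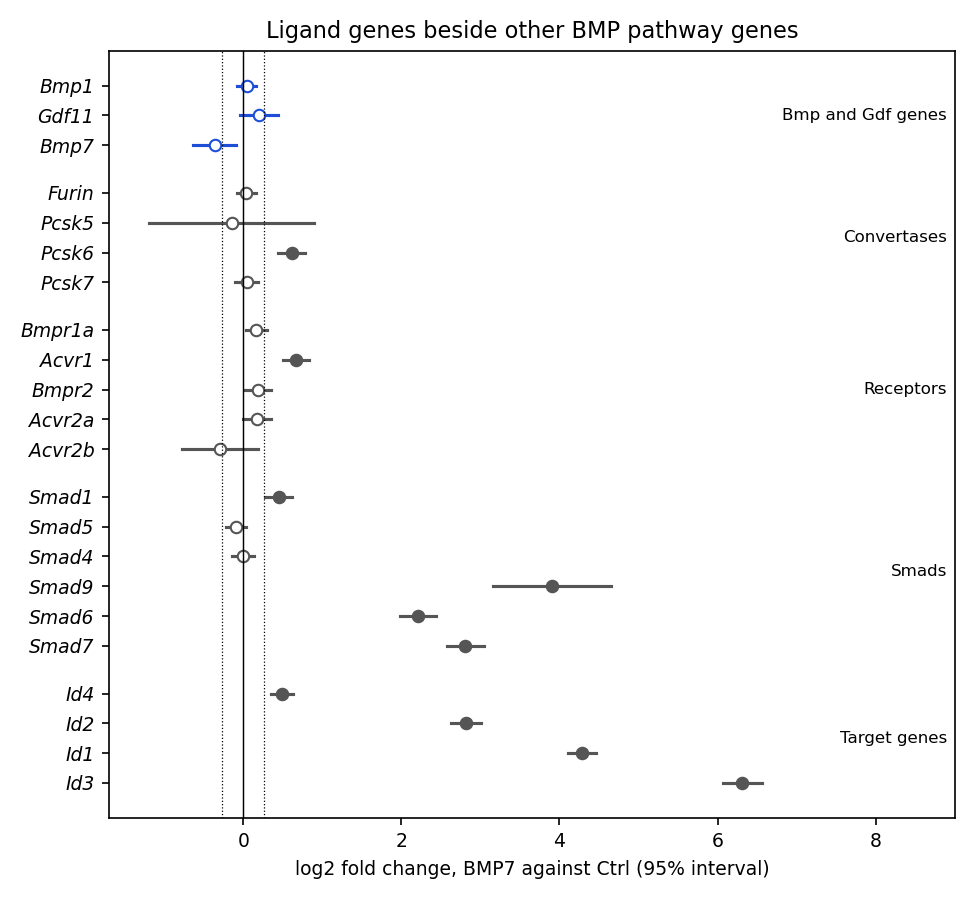
Log2 fold change of BMP7 against Ctrl (horizontal axis) with its 95% interval for the 3 tested Bmp and Gdf genes (blue) and for convertase, receptor, Smad and Id genes (grey), where filled points passed the threshold and dotted lines mark 1.2-fold. *Bmp1*, *Gdf11* and *Bmp7* lie between -0.36 and 0.20, while the Id genes lie between 0.49 and 6.31.

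Antagonists, most of them secreted proteins that bind BMPs outside the cell, were tested for 13 of 22 listed genes, with 3 higher and 1 lower. *Nog*, encoding noggin, rose from 0.259 to 1.45 CPM and *Sostdc1* from 36.9 to 197 CPM (log2 fold changes 2.45 and 2.42), and *Bambi*, which encodes a pseudoreceptor in the membrane, had 0.57, which was lost in 6 of 12 alternatives. *Chrd*, the chordin gene and a substrate of BMP1, was lower (-1.10), but not without Ctrl replicate 2, without BMP7 replicate 3 or with BMP7 replicate 1 alone.

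Among 15 partners and substrates of the BMP1 protease 12 were tested, with 4 higher and 1 lower. The proteoglycan gene *Bgn* rose from 5.19 to 16.7 CPM, the collagen gene *Col1a2* from 1.43 to 4.45 CPM and *Dcn* from 1.18 to 3.70 CPM, while *Col1a1* fell from 71.1 to 53.2 CPM. *Dcn* was at 1.74 CPM in BMP7 replicate 1, close to the highest Ctrl value of 1.73, and at 4.44 and 4.90 CPM in BMP7 replicates 3 and 4, the libraries with the higher adipocyte sums. Of 8 fibroblast genes, *Dcn* among them, 6 were tested, with *Dcn* and *Col3a1* higher and *Col1a1* lower and a median log2 fold change of 0.58. The call of *Col3a1*, which is also among the 4 higher partners, was kept in 6 of 12 alternatives. The summed level of the 8 fibroblast genes, most of it *Col1a1* and *Pdgfra*, lay between 114 and 125 CPM in the Ctrl libraries and between 99.3 and 115 CPM in the BMP7 libraries. The part of other cells in this was not tested. *Pcolce* and *Pcolce2*, which enhance procollagen cleavage, were not called.

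Stress genes that are known to rise together with *Gdf15* were transcribed in these cells, in which *Gdf15* was at the floor. Of 11 genes of the integrated stress response 10 were tested, with *Chac1* higher (log2 fold change 0.43) and *Trib3* and *Ddit4* lower (-0.37 and -0.43). The calls of *Chac1* and *Trib3* were lost in 4 and 5 of 12 alternatives. *Atf4* was at 99.6 FPKM in Ctrl and 108 with BMP7, and *Ddit3* at 11.5 and 11.6. Of 9 p53 targets, all tested, 1 was higher, *Cdkn1a*, the cell cycle inhibitor gene (log2 fold change 0.78).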

How the data were processed

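HC11 cells in medium without or with BMP7 were sequenced as poly(A) RNA in 3 libraries each. The authors aligned read pairs with subjunc (mm10 and GENCODE vM30 in the methods, Subread 2.0.3 in the submitters' processing notes) and deposited the counts of featureCounts without normalization. By the file header these are fragments per gene name on exons of an mm39 annotation, without strand, and fragments of several places or genes were left out. Coordinates are given as deposited. Summed exon lengths per gene are part of the deposited table. Columns of the Ctrl libraries match the labels, whereas the BMP7 columns carry the numbers 1, 3 and 4 and were matched to the group only. No column was left out.

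Counts were analysed in R 4.3.3 with edgeR 4.0.16 (filter by expression, TMM, quasi-likelihood test of BMP7 against Ctrl, Benjamini-Hochberg adjustment over all tested genes), with DESeq2 1.42.0 as an alternative. The study used DESeq2. Standard errors were derived from each gene's log2 fold change and F. Exact permutation tests used log2 CPM with a prior count of 2. Other alternatives were RLE and upper-quartile scaling, other filters, no fold change threshold, leaving out each library, BMP7 replicate 1 alone, the column number as a block, and for levels library totals or no length. The tests were tried on simulated data. Exon overlaps came from the deposited positions, and BLAST 2.17.0 searched GENCODE vM21 transcripts for copies of at least 95% identity over 100 bases, which matched no gene beyond the overlapping ones.

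The 10 genes, the lists and the tests were chosen with earlier results of these data known. Named genes are these 10, up to 3 called genes of each list and direction with the largest change and a mean of at least 1 CPM, the convertases, 5 receptors, the Id genes and overlapping neighbours. Other genes were named after their values were seen. Genes most similar in pattern were to be named for called genes only, of which there were none.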

Additional observations from a re-analysis of the deposited data

How the results depend on the processing

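The labels number the samples 1 to 3 in both groups, but the BMP7 columns carry 1, 3 and 4, so whether a number pairs libraries is unknown. As an alternative chosen after seeing the data, the column number was taken as a replicate block, in which 2 numbers, 1 and 3, occur in both groups and 1 residual degree of freedom is left. Ctrl replicate 2 and BMP7 replicate 4, whose numbers occur in 1 group only, add nothing to the difference between the groups in that fit. The deviations from the group means correlated at -0.02 for number 1 and 0.18 for number 3, over 15733 genes. With the replicate block 1 of the 10 genes was called higher, *Gdf11* (log2 fold change 0.38, adjusted p = 0.0358), and 0 lower, with *Bmp7* at -0.40 (adjusted p = 0.0989), and 1152 genes were higher and 959 lower among all tested. Under the 13 other alternatives 0 of the 10 genes were called in either direction. The log2 fold change of *Bmp7* stayed between -0.42 and -0.26 and its adjusted p between 0.0617 and 0.297, that of *Gdf11* between 0.11 and 0.29 (adjusted p 0.148 to 0.639), and that of *Bmp1* between 0.03 and 0.06 (adjusted p 0.626 to 0.826). With 1 library left out, 563 to 902 genes were lower among all tested, against 846, with the fewest without Ctrl replicate 2. Among the pathway lists combined, 3 to 5 were lower, against 5, with 3 without Ctrl replicate 2 or BMP7 replicate 3, and also 3 with BMP7 replicate 1 alone. Scaling by library totals in place of TMM moved the mean of *Bmp1* from 12.9 to 13.2 FPKM in Ctrl and from 13.3 to 12.9 with BMP7, so its order between the groups turned, and left *Bmp7* and *Gdf11* within 1 SD. The order of the 10 genes by level was the same in CPM. Depth limits the 7 genes that were not tested, whose differences were not detectable at these counts.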

Other observations

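Markers of the mammary lineages, used above only to check the cells, also differed between the groups. Of 7 luminal genes 6 were tested and 4 were lower with BMP7, namely *Krt18* (log2 fold change -0.67), *Epcam* (-0.42), *Cldn3* (-0.31) and *Cdh1* (-0.27), from edgeR's quasi-likelihood test. Of 6 basal genes, all tested, 3 were higher, namely *Oxtr* (1.58), *Trp63* (0.64) and *Krt14* (0.43). The others were not called, with *Acta2* at -1.23 and lower in all 3 BMP7 libraries, *Mylk* at -0.12 and *Krt5* at -0.03. The summed level of the luminal list ranged over 1787 to 1810 CPM in the Ctrl libraries and 1437 to 1460 CPM in the BMP7 libraries, and that of the basal list over 6335 to 6480 and 7146 to 8484 CPM. Most of the luminal sum was *Cdh1* and *Epcam*, at 983 and 640 CPM in Ctrl, which were named above as genes of the epithelium. Most of the basal sum was *Krt14* and *Krt5*, at 3489 and 2643 CPM in Ctrl, so the sums say little about the other genes of the lists. Of the endothelial list 1 of 6 genes was tested, *Pecam1*, which was higher (0.77), while the other 5 had at most 20 counts over all libraries.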
